A study of Drosophila melanogaster with 6 samples.

Results

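The genes described here are the receptors and early response genes of ecdysone and juvenile hormone, measured in heads of adult Drosophila melanogaster. They were chosen by name, with no measured value: EcR, usp, Eip75B, Eip74EF, br, ftz-f1, Hr38, Met, gce and Kr-h1. Through FlyBase identifiers 8 of the 10 matched a row among the 15886 rows of the deposited table. For br and Kr-h1 the identifiers of the annotation used here matched no row, and these 2 genes are not analysed here. All 8 matched genes had a mean of at least 1 FPKM (fragments normalised to transcript length and library size) and were tested.

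Both groups carried TubGS, a GeneSwitch driver under a tubulin promoter that is active in most cells once the steroid RU486 is in the food. The RNAi-GLAD group (TubGS>RNAi-GLAD) expressed an RNA interference construct named GLAD, and the RNAi-Ctrl group (TubGS>RNAi-GFP) a construct against GFP, a protein flies lack. All flies of both groups received RU486 and were taken on day 7 after induction, so a response to the drug itself that both groups share cannot be told apart from their baseline. Each group had 3 libraries of 100 pooled animals, whose tissue the labels give as head and the extraction protocol as brain. The labels do not name the gene that GLAD stands for, so the target was not checked, and they give neither sex nor age beyond the day of induction. Nothing says whether libraries came from separate crosses; p-values then reflect the spread between these libraries alone, which may be technical.

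Ecdysone is a steroid that times moulting and metamorphosis. Its active form binds EcR, a nuclear receptor that works as a heterodimer with Usp, the fly relative of the vertebrate retinoid X receptor. The dimer switches on early genes such as Eip75B, Eip74EF and br, which encode transcription factors that act on later genes, and ftz-f1 marks the competence phase between hormone pulses. Juvenile hormone, a sesquiterpenoid, binds the paralogous bHLH-PAS proteins Met and Gce, whose best known target is Kr-h1. Adult flies keep both hormones, and in the adult head the pathways are known for roles in memory, sleep, courtship and reproduction.

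The libraries numbered 3 stood with the other group against their labels, and this bears on every comparison below. The noncoding RNA lncRNA:CR40469 read 1935, 2198 and 5.86 FPKM in the RNAi-Ctrl libraries numbered 1, 2 and 3, and 4.20, 4.77 and 1718 FPKM in the RNAi-GLAD libraries. CG32641 and sordd2 lay between 25.7 and 34.0 FPKM in RNAi-Ctrl 1 and 2 and RNAi-GLAD 3, and were listed at 0 in the other 3 libraries. These genes were named after their values were seen. Between the libraries numbered 3, the sign found in the other 4 was opposite in 99.1% of the 527 genes called there and in 75.1% of all 9661 tested genes. Cyp18a1, tgo, vri and to, given below, did not follow this pattern. Each comparison is therefore given as labelled and again for the 4 libraries numbered 1 and 2. Low values implied totals of 22.1 to 29.5 M fragments per library. Markers of head tissue were present. The 4 measured photoreceptor genes, led by the rhodopsin ninaE, summed to 27314 to 27903 FPKM among RNAi-Ctrl libraries and 26966 to 27987 FPKM among RNAi-GLAD libraries. The 4 measured neuronal genes summed to 690.3 to 755 and 690.9 to 711 FPKM, the 5 glial genes to 1017 to 1123 and 1020.0 to 1087 FPKM, the 5 fat body genes to 959 to 1367 and 976 to 1187 FPKM, and the 4 muscle genes to 649 to 719 and 613 to 818 FPKM. The 5 testis genes summed to 6.23 to 30.9 FPKM among RNAi-Ctrl libraries and 1.31 to 47.3 FPKM among RNAi-GLAD libraries, and the 4 measured ovary genes to at most 0.348 FPKM. Photoreceptor and fat body genes are those of tissues outside the brain proper. In the 4 libraries numbered 1 and 2, 2 of 5 fat body genes were higher in RNAi-GLAD at a limma adjusted p under 0.05, which 5.45% of all tested genes reached. They were fit (log2 fold change 2.25 ± 0.18, adjusted p = 0.0186) and Lsd-1, a lipid droplet protein gene (0.49 ± 0.07, 0.0469). Lsd-1 lay close to the threshold of 0.05, and other settings are not reported here for either gene. The rest of the fat body list was uncalled and had both signs: 1.34 ± 0.39 for Lsp2, -0.26 ± 0.16 for Apolpp and -4.12 ± 2.13 for Yp1. Of 4 tested testis genes 1 was called, topi, which was lower (-1.71 ± 0.16, limma adjusted p = 0.0225). It lay under 1 FPKM in RNAi-GLAD 1 and 2. It reached the tested mean of 1 FPKM only through RNAi-Ctrl 1 and 2, so its call does not stand on its own. The other tested testis genes were uncalled, with positive values: 0.48 ± 1.64 for Mst84Db, 0.44 ± 1.27 for Mst98Ca and 0.22 ± 1.55 for Mst87F. As labelled none of fit, Lsd-1 and topi passed (limma adjusted p = 0.999 for each). Yp1, a yolk protein gene in the fat body list, read 295.6 FPKM in RNAi-Ctrl 1 and 0.735 to 3.28 FPKM in the other 5 libraries. All 4 tested neuronal genes lay lower in RNAi-GLAD in the 4 libraries: Syt1 (-0.13 ± 0.05), brp (-0.11 ± 0.05), elav (-0.10 ± 0.06) and nSyb (-0.05 ± 0.05). Their groups did not overlap, as for 56.5% of all tested genes, and 0 were called. Negative values were also found for 4 of 4 muscle, 4 of 5 glial and 3 of 4 photoreceptor genes, and for 4372 of all 9661 genes. In such bulk samples, fewer cells of a type and less RNA per cell cannot be told apart.

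In these adult heads Eip75B was the highest and Hr38 the lowest of the 8 genes in every library. FPKM is a value per length, so levels of different genes can be set side by side, but only roughly. The 8 genes have 2 to 7 annotated transcripts, and the lengths used for the deposited values are not known here. The SDs of level ratios below cover the spread between libraries alone. Eip75B stood highest with a mean of 42.6 FPKM over the 6 libraries. It was followed by usp (26.3), gce (22.1), ftz-f1 (21.9), EcR (13.1), Met (12.5), Eip74EF (5.80) and Hr38 (3.68). Neighbours in this order were apart in 6 of 6 libraries, except that gce exceeded ftz-f1 in 3 of 6 and EcR exceeded Met in 5 of 6. The full order of the means was found in 2 of 6 libraries, RNAi-Ctrl 1 and 2. The median of the 8 genes was 17.5 FPKM, against 14.9 FPKM over all 9631 tested genes.

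**Figure D1:**
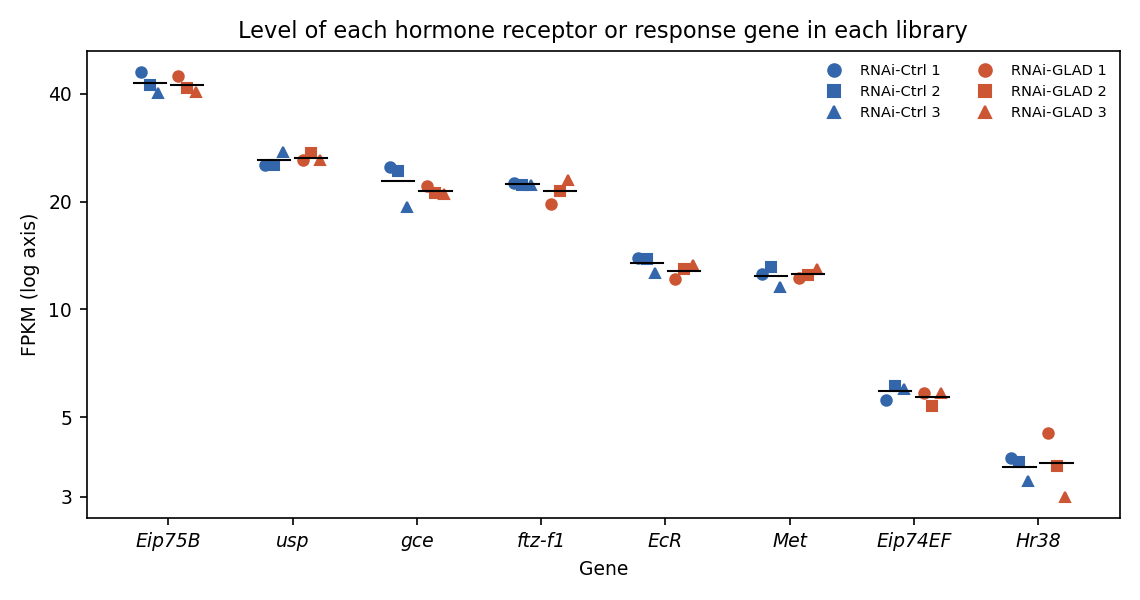
FPKM of the 8 measured receptor and response genes in each library (points) with the mean of each labelled group. Eip75B lies highest and Hr38 lowest in all 6 libraries, and the RNAi-Ctrl and RNAi-GLAD points overlap for each of the 8 genes.

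Among the receptors of ecdysone, EcR (FBgn0000546; 2R, 6087873 to 6169087 in BDGP6, minus strand) read 13.9, 13.8 and 12.6 FPKM in the RNAi-Ctrl libraries and 12.2, 13.0 and 13.3 FPKM in the RNAi-GLAD libraries, each in the order of their numbers, as for every gene below. RNAi-Ctrl 1 and 2 were the highest libraries, and RNAi-Ctrl 3 lay inside the RNAi-GLAD range. Its partner usp (FBgn0003964; X, 2038798 to 2042311, minus strand) read 25.4, 25.3 and 27.6 FPKM in the RNAi-Ctrl libraries and 26.1, 27.3 and 26.2 FPKM in the RNAi-GLAD libraries. The highest value was that of RNAi-Ctrl 3 and the lowest that of RNAi-Ctrl 2, so the groups overlapped. The level of usp was 2.01 ± 0.157 times that of EcR (SD over 6 libraries), between 1.83 and 2.18 times. Usp also has partners other than EcR, among them Hr38.

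Hr38 (FBgn0014859; 2L, 20683462 to 20714588, minus strand), the fly member of the NR4A receptors, can pair with Usp and is induced by neuronal activity in insect brains. It read 3.83, 3.74 and 3.33 FPKM in the RNAi-Ctrl libraries and 4.51, 3.65 and 3.00 FPKM in the RNAi-GLAD libraries. RNAi-GLAD 1 was the highest and RNAi-GLAD 3 the lowest of all 6, so the whole range of the gene lay within the RNAi-GLAD group. Hr38 had the widest spread of the 8 genes, a coefficient of variation of 13.9%.

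Of the early response genes, Eip75B (FBgn0000568; 3L, 17950953 to 18064696, minus strand), which encodes a heme-binding nuclear receptor, read 46.0, 42.4 and 40.2 FPKM in the RNAi-Ctrl libraries and 44.8, 41.6 and 40.5 FPKM in the RNAi-GLAD libraries. Libraries of the same number lay close together, and both libraries numbered 1 stood above the other 4. The same held for Hr38 and for 7.30% of all tested genes. Eip74EF (FBgn0000567; 3L, 17558672 to 17619325, minus strand), an ETS-domain factor, read 5.59, 6.13 and 5.997 FPKM in the RNAi-Ctrl libraries and 5.85, 5.37 and 5.85 FPKM in the RNAi-GLAD libraries, with the groups interleaved. Both genes respond early to ecdysone, and their levels per length differed by 7.37 ± 0.606 times (SD, n = 6 libraries).

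The orphan receptor gene ftz-f1 (FBgn0001078; 3L, 18750607 to 18801309, minus strand) read 22.5, 22.3 and 22.2 FPKM in the RNAi-Ctrl libraries and 19.7, 21.4 and 22.99 FPKM in the RNAi-GLAD libraries. The RNAi-Ctrl libraries lay close together, while RNAi-GLAD held both the lowest and the highest library. In the annotation 2521 of its 8581 exonic bases are shared with lncRNA:CR45939 on the same strand, so reads of that stretch could belong to either gene.

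The juvenile hormone receptors were Met and gce, paralogues that can stand in for each other in part. Met (FBgn0002723; X, 11616124 to 11621280, plus strand) read 12.6, 13.2 and 11.6 FPKM in the RNAi-Ctrl libraries and 12.2, 12.5 and 13.0 FPKM in the RNAi-GLAD libraries, and RNAi-Ctrl held both ends of the range. The other paralogue, gce (FBgn0261703; X, 15297766 to 15319074, plus strand), read 25.0, 24.3 and 19.3 FPKM in the RNAi-Ctrl libraries and 22.1, 21.1 and 20.9 FPKM in the RNAi-GLAD libraries. RNAi-Ctrl 1 and 2 were highest and RNAi-Ctrl 3 lowest, with the RNAi-GLAD libraries between them. The level of gce was 1.77 ± 0.138 times that of Met (SD, n = 6 libraries), between 1.62 and 1.99 times. In the annotation 2364 of the 5809 exonic bases of gce are shared with the antisense genes asRNA:CR44429 and asRNA:CR44961. For the counting, a strand setting was not given in the sources used here. Antisense reads could be part of the gce values. By contrast 265 of 3038 exonic bases of usp and 168 of 7704 of Hr38 are shared with other genes, and none of Eip75B, EcR, Met or Eip74EF.

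The median spread of the 8 genes over the 6 libraries was below that of all tested genes. Their coefficients of variation ran from 3.63% for usp to 13.9% for Hr38 with a median of 5.30%, against a median of 8.88% over all tested genes. Counting error from the approximate fragments behind each value, 509.8 for Hr38 at the lowest and 15950 for Eip75B at the highest, would by itself give 0.850% to 3.84%. By rank, gce and Hr38 stood above the middle of all tested genes in their spread (55.0% and 70.5% of genes varied less) and the other 6 genes below it (8.04% to 24.8% of genes varied less). The background genes were not matched to these 8 for level or exon length, and the effect of either was not tested.

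**Figure D2:**
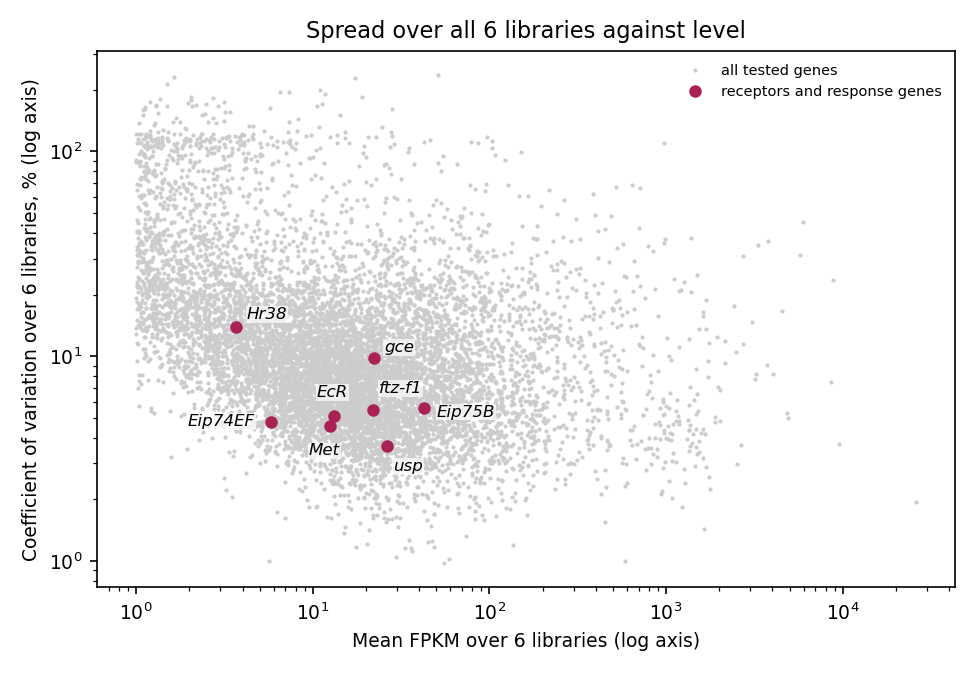
Coefficient of variation over the 6 libraries (percent, log axis) against mean FPKM (log axis) for all 9631 tested genes (grey) and the 8 receptor and response genes (coloured). Hr38 has the highest coefficient, 13.9%, and usp the lowest, 3.63%.

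As labelled, no receptor or response gene differed between RNAi-GLAD and RNAi-Ctrl by more than the spread between libraries. Log2 fold changes, taken on the log2(FPKM + 1) scale as RNAi-GLAD less RNAi-Ctrl, ran from -0.08 ± 0.10 (SE) for gce to 0.03 ± 0.06 for usp. They were -0.07 for ftz-f1, -0.06 for EcR, -0.05 for Eip74EF, -0.02 for Eip75B, and 0.01 for both Met and Hr38. The median of the 8 was -0.03, and that of all tested genes 0.01. Called genes, here as throughout, had an adjusted p under 0.05 in limma with Benjamini-Hochberg adjustment over all tested genes. Of the 8 genes 0 were called (adjusted p = 0.999 for each), where the background was 0 of 9631 genes (0%). At an unadjusted p under 0.05 there were also 0 of the 8, against 112 genes (1.16%). In 0 of the 8 did the groups fail to overlap, against 385 genes (4%). Exact two-sided permutation tests over the 6 libraries gave p = 0.3 for EcR, the smallest of the 8, where 3 against 3 libraries allow 0.1 at the least.

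The 95% confidence interval lay within 0.5 of 0 on the log2 scale for 8 of 8 genes, against 77.3% of all tested genes, and within 0.25 for 6 of 8, against 36.5%. The exceptions at 0.25 were Hr38 (-0.31 to 0.34) and gce (-0.34 to 0.17). These intervals rest on the labels, and with the libraries numbered 3 going against them they do not bound a difference between the constructs.

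In the 4 libraries numbered 1 and 2, gce and EcR lay lower in RNAi-GLAD by the smallest p among the 8 genes, and neither was called. For gce the mean over n = 2 libraries was 24.7 ± 0.488 FPKM (SD) in the RNAi-Ctrl group and 21.6 ± 0.650 FPKM in the RNAi-GLAD group, a log2 fold change of -0.18 ± 0.05 (SE) with a 95% interval of -0.32 to -0.05. Its unadjusted p in limma was 0.0190 and its adjusted p was 0.122, and over the other settings tried in these 4 libraries the adjusted p lay between 0.0824 and 0.427. For EcR the means were 13.8 ± 0.0383 and 12.6 ± 0.574 FPKM, a log2 fold change of -0.13 ± 0.05 (limma adjusted p = 0.241). The antisense overlap given above bears on gce, and its part in the result was not tested. The neuronal marker genes given above were also lower in RNAi-GLAD in these 4 libraries, and their part was not tested either.

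The other 6 genes had larger p values. Their log2 fold changes were -0.12 ± 0.06 for ftz-f1 (limma adjusted p = 0.301), 0.07 ± 0.05 for usp (0.426), -0.05 ± 0.05 for Met (0.586), 0.08 ± 0.12 for Hr38 (0.743), -0.05 ± 0.08 for Eip74EF (0.755) and -0.03 ± 0.07 for Eip75B (0.822). Called genes numbered 0 of 8, against 527 of 9661 genes (5.45%), of which 396 (4.1%) were higher and 131 (1.36%) lower. At an unadjusted p under 0.05 there was 1 of 8, gce, against 24.9% of all genes. The groups did not overlap for 5 of 8, namely usp, gce, ftz-f1, EcR and Met, against 56.5%, so this share was near the background. The median log2 fold change of the 8 was -0.05, against 0.02 over all genes. The 95% interval lay within 0.5 for 8 of 8 genes (68.9% of all genes) and within 0.25 for 3 of 8 (26.2%).

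**Figure D3:**
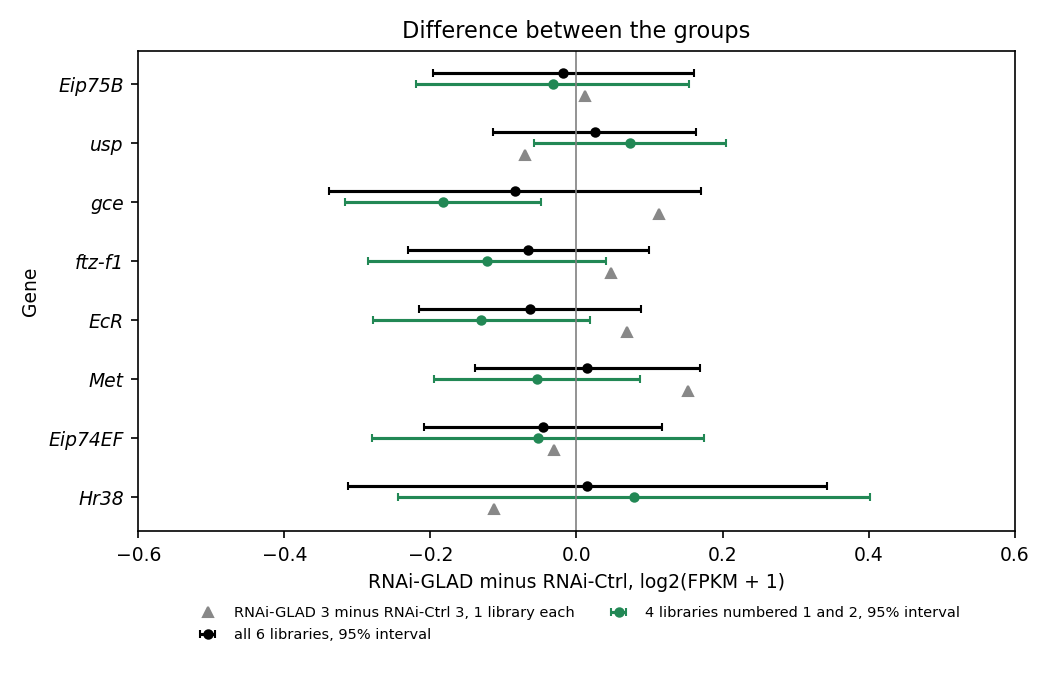
Log2 fold change of the 8 genes, as RNAi-GLAD less RNAi-Ctrl of log2(FPKM + 1), with 95% confidence intervals from limma, for all 6 libraries as labelled and for the 4 libraries numbered 1 and 2, with the difference between the libraries numbered 3 as triangles (1 library each, no interval). The interval for gce in the 4 libraries (-0.32 to -0.05) excludes 0 before adjustment, and its adjusted p is 0.122.

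Between the libraries numbered 3 most of these small differences had the other sign. The log2 difference of RNAi-GLAD 3 minus RNAi-Ctrl 3 was 0.11 for gce, 0.07 for EcR, 0.05 for ftz-f1, 0.15 for Met and 0.01 for Eip75B, and -0.07 for usp and -0.11 for Hr38. Eip74EF (-0.03) alone of the 8 kept the sign it had in the other 4 libraries. An opposite sign was thus found in 7 of 8 genes (87.5%), in 75.1% of all 9661 tested genes and in 99.1% of the 527 called genes.

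For the 2 genes with the widest range, the tested genes with the most similar profile over the 6 libraries were looked up. Likeness was the mean absolute difference between gene-centred log2(FPKM + 1) values over the 6 libraries. Hr38 was nearest to Aven (0.023), CG13255 (0.029) and mei-S332 (0.029). Aven read 5.21, 4.96 and 4.62 FPKM in the RNAi-Ctrl libraries and 6.03, 5.22 and 4.08 FPKM in the RNAi-GLAD libraries, with the same highest and lowest library as Hr38. The nearest to gce were bru3 (0.012), which encodes an RNA-binding protein, the noncoding RNA lncRNA:noe (0.014) and Rbp6 (0.017), another RNA-binding protein. For bru3 the values were 45.4, 43.5 and 35.3 FPKM in the RNAi-Ctrl libraries and 41.3, 38.5 and 38.3 FPKM in the RNAi-GLAD libraries, again with RNAi-Ctrl 3 lowest. These are descriptions over the same 6 libraries, and the cause of the likeness was not tested.

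The rest of both pathways was read from 10 lists of 92 genes, of which 89 matched a row and 67 were tested; 22 lay under a mean of 1 FPKM. The tested genes of the 4 libraries include phm and Edg91, which lay under 1 FPKM in both libraries of 1 group and passed that filter through the other group. As labelled 0 of the 67 were called, 2 (2.99%) had an unadjusted p under 0.05 and 3 (4.48%) had groups that did not overlap, shares to be read against 0%, 1.16% and 4% of all tested genes. Among libraries 1 and 2, 1 of 67 (1.49%) was called, 12 (17.9%) had an unadjusted p under 0.05 and 35 (52.2%) had groups that did not overlap, against 5.45%, 24.9% and 56.5%. The list medians of the log2 fold change in the 4 libraries were 0.14 for neuronal activity-regulated genes (5 of 5 positive), 0.11 for juvenile hormone enzymes (5 of 9), 0.06 for other juvenile hormone-linked genes (4 of 5), 0.02 for bHLH-PAS factors (3 of 6) and 0.01 for both other nuclear receptors (5 of 8) and neuroendocrine regulators (4 of 7). They were -0.05 for other ecdysone-induced genes (6 of 14), -0.09 for cofactors (2 of 6) and -0.21 for ecdysteroid synthesis (1 of 3, with phm among the 3). Ecdysteroid transport and inactivation lay at -0.0002 (2 of 4). Over all tested genes the median was 0.02, with 5289 of 9661 positive. As labelled the list medians lay between -0.01 and 0.09.

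**Figure D4:**
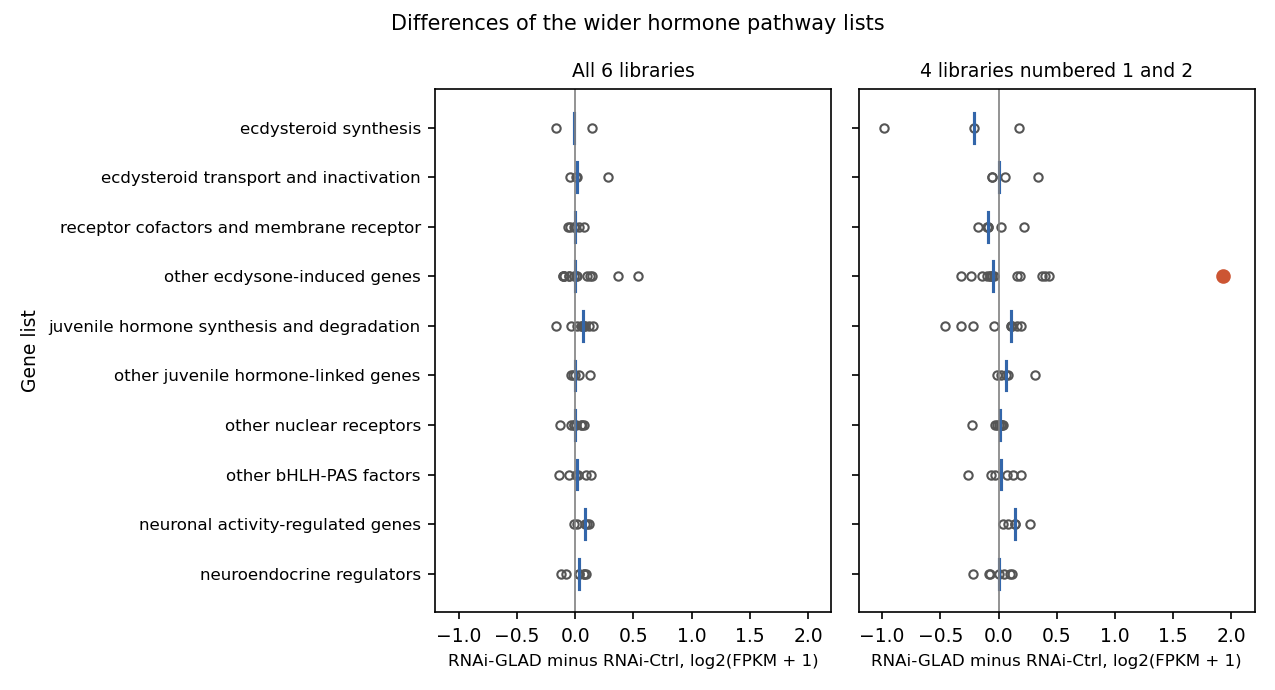
Log2 fold changes of the tested genes of each pathway list (points) and their median (bar), for the 6 libraries as labelled and for the 4 libraries numbered 1 and 2. Edg91 (filled point) is the single called gene, at 1.93 in the 4 libraries, where it passed the filter only through RNAi-GLAD 1 and 2.

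Ecdysteroid synthesis, known best from the larval prothoracic gland and the ovary, lay low in these heads: of the 8 matched enzymes 2 reached a mean of 1 FPKM over the 6 libraries. The enzyme genes spo and dib were each listed at 0 in 5 of 6 libraries, with about 1 fragment in the sixth. For phm, a hydroxylase of the pathway (phtm in the annotation; X, 18685766 to 18688433), the values were 1.60, 1.79 and 0.119 FPKM in the RNAi-Ctrl libraries and 0.344, 0.379 and 0.706 FPKM in the RNAi-GLAD libraries. RNAi-Ctrl 1 and 2 were highest, then RNAi-GLAD 3, and RNAi-Ctrl 3 lowest. Its mean of 0.822 FPKM kept it out of the comparison as labelled, and in the 4 libraries it passed the filter only through RNAi-Ctrl 1 and 2, so a test with the filter does not stand on its own. With no filter its log2 fold change in the 4 libraries was -0.98 ± 0.11 (limma adjusted p = 0.0556); over all settings, most of them with the filter, it lay between 0.0313, with no trend, and 0.198. Cyp6t3 (-0.21) and sad (0.17), 2 further P450 enzymes of the pathway, were not called either (limma adjusted p = 0.482 and 0.695).

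Of ecdysteroid transport and inactivation, 0 of 4 tested genes were called in either comparison. Cyp18a1 (X, 18688538 to 18693042), the P450 enzyme that inactivates ecdysteroids, read 4.64, 5.68 and 5.61 FPKM in the RNAi-Ctrl libraries and 6.36, 7.23 and 6.38 FPKM in the RNAi-GLAD libraries. All 3 RNAi-GLAD libraries lay above all 3 RNAi-Ctrl libraries, and groups did not overlap as labelled for 4% of all tested genes. The libraries numbered 3 are included, and they went against their labels in the genes given first. This order by itself thus does not show a difference between the constructs. The log2 fold change as labelled was 0.28 ± 0.09 (limma p = 0.0241, adjusted p = 0.999), and an exact permutation test gave p = 0.1, the smallest that 3 against 3 allow. Without the libraries numbered 3 it was 0.34 ± 0.12 (limma adjusted p = 0.184). As labelled the unadjusted limma p was 0.0232 with a pseudocount of 0.1, 0.0565 with quantile scaling and 0.0816 without RNAi-GLAD 2. Cyp18a1 is the chromosomal neighbour of phm. The importer gene EcI (Oatp74D in the annotation) and the transporter gene Atet had log2 fold changes of -0.06 and 0.06 in the 4 libraries.

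Cofactors of the receptors were expressed alongside them, and 0 of 6 were called in either comparison. Without the libraries numbered 3, nej, the CBP acetyltransferase, had a log2 fold change of -0.18 ± 0.07 (limma adjusted p = 0.218), rig, a coactivator of EcR, 0.22 ± 0.10 (0.262), and tai, a coactivator shared by both hormone pathways, -0.09 ± 0.05 (0.336). DopEcR, a membrane receptor for dopamine and ecdysteroids, read 94.8, 86.1 and 78.0 FPKM in the RNAi-Ctrl libraries and 87.5, 81.5 and 79.1 FPKM in the RNAi-GLAD libraries. Its level thus lay above that of Eip75B, the highest of the nuclear receptors described here, in each library.

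Among 20 other ecdysone-induced genes, 14 were tested, and 1 was called in the 4 libraries. Edg91, a gene of the epidermis that makes prepupal cuticle, read 0.141, 0.587 and 6.42 FPKM in the RNAi-Ctrl libraries and 4.66, 3.66 and 0.557 FPKM in the RNAi-GLAD libraries. RNAi-Ctrl 3 was the highest of all, and RNAi-GLAD 3 lay with RNAi-Ctrl 1 and 2. In RNAi-GLAD 1 and 2 Edg91 was higher by 1.93 ± 0.25 on the log2 scale (limma adjusted p = 0.0352), and as labelled the value was 0.54 ± 0.83 (adjusted p = 0.999). In the 4 libraries it passed the filter only through RNAi-GLAD 1 and 2, so this call does not stand on its own. Leaving out RNAi-Ctrl 1, RNAi-Ctrl 2, RNAi-GLAD 1 or RNAi-GLAD 2 ended the call, with limma adjusted p of 0.189, 0.160, 0.0750 and 0.0863. It was also lost with no filter on low values (0.0651), no trend (0.0551) and a pseudocount of 0.1 (0.0636). The fat body gene fit was also highest in RNAi-Ctrl 3, followed by RNAi-GLAD 1 and 2, with 7.50, 7.49 and 97.4 FPKM in the RNAi-Ctrl libraries and 46.9, 33.0 and 16.3 FPKM in the RNAi-GLAD libraries. Lsp2, a larval serum protein gene of the same marker list, read 63.3, 111.7 and 461 FPKM in the RNAi-Ctrl libraries and 163.8, 280.7 and 230.5 FPKM in the RNAi-GLAD libraries. The rest of that list had other orders. Apolpp read 453, 530 and 553 FPKM in RNAi-Ctrl and 357, 468 and 592 FPKM in RNAi-GLAD, highest in RNAi-GLAD 3. Lsd-1 read 272, 306 and 253 FPKM in RNAi-Ctrl and 407, 405 and 208 FPKM in RNAi-GLAD. Yp1 was high in RNAi-Ctrl 1 alone, as given above. The 5 fat body markers, none of them at 0 in any library, summed as given above to values that overlapped between the groups. They lay between 959 and 1367 FPKM in RNAi-Ctrl and between 976 and 1187 FPKM in RNAi-GLAD, and their part in the result was not tested.

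Eip55E (Cth in the annotation), a cystathionine gamma-lyase, and Sox14, a transcription factor that acts below EcR in the pruning of neurons, followed in that list. Sox14 read 14.0, 14.6 and 20.5 FPKM in the RNAi-Ctrl libraries and 17.7, 20.8 and 15.8 FPKM in the RNAi-GLAD libraries. Its log2 fold change in the 4 libraries was 0.40 ± 0.09 (limma adjusted p = 0.0924) and that of Eip55E 0.37 ± 0.07 (0.0706). Under single settings each was called, Sox14 without RNAi-GLAD 1 (0.0492) and Eip55E with a minimum mean of 5 FPKM (0.0485); over all settings the adjusted p ran up to 0.359 and 0.282. For both genes RNAi-Ctrl 3 lay among the high libraries and RNAi-GLAD 3 nearer to RNAi-Ctrl 1 and 2.

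**Figure D5:**
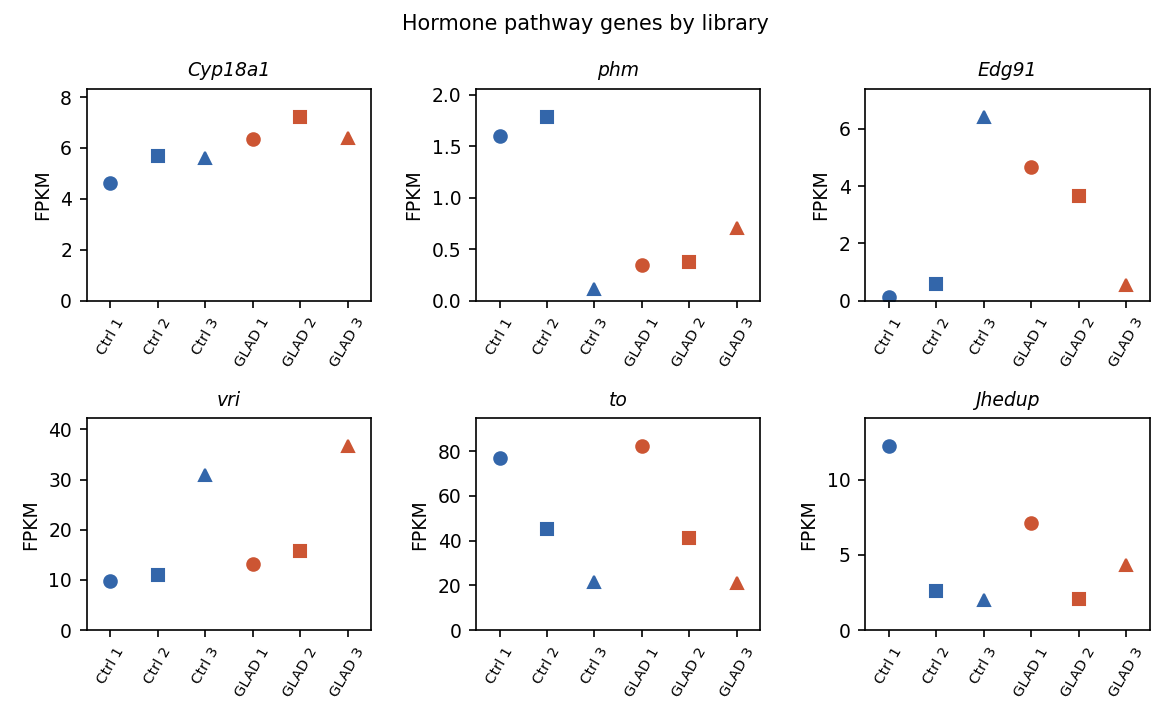
FPKM (axis from 0) in each of the 6 libraries for Cyp18a1, phm, Edg91, vri, to and Jhedup, 1 point per library. Cyp18a1 is higher in all 3 RNAi-GLAD libraries as labelled, where groups do not overlap for 4% of all tested genes. Edg91 is highest in RNAi-Ctrl 3 at 6.42 FPKM, and in both libraries numbered 3 vri is highest and to lowest.

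Juvenile hormone enzymes were well represented, with all 10 listed genes tested as labelled and 0 called. Of these 9 were tested in the 4 libraries and 0 called. Fpps, which makes the farnesyl precursor of the hormone, had a log2 fold change of 0.16 ± 0.06, and Jheh1, an epoxide hydrolase that degrades the hormone, 0.11 ± 0.04 (limma adjusted p = 0.202 and 0.217). Jheh1 was lowest in both libraries numbered 3, with 64.7 FPKM for RNAi-Ctrl 3 and 76.9 FPKM for RNAi-GLAD 3, and lay between 100.2 and 109 FPKM in the other 4 libraries. jhamt, the methyltransferase of the last steps of synthesis, lay low, at 1.78, 1.60 and 0.579 FPKM in the RNAi-Ctrl libraries and 1.51, 0.847 and 1.55 FPKM in the RNAi-GLAD libraries.

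Of 6 other juvenile hormone-linked genes 5 were tested and 0 called. JhI-1 (RNaseZ in the annotation), a tRNA-processing nuclease, had a log2 fold change of 0.31 ± 0.08 in the 4 libraries (limma adjusted p = 0.123), JhI-21, an amino acid transporter, 0.08 ± 0.05 (0.431) and Fkbp39 0.06 ± 0.05 (0.505).

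The related factor families and the regulators of hormone release also gave 0 calls in either comparison. Of 8 tested other nuclear receptors, svp, the COUP-TF homologue, had the smallest p in the 4 libraries (-0.23 ± 0.08, limma adjusted p = 0.177), and Hr78 (0.03) and ERR (-0.03) lay near 0. Of 6 tested bHLH-PAS factors, the family of Met and gce, trh was at 0.19, tgo at 0.12 and sim at -0.26 (limma adjusted p = 0.207, 0.246 and 0.378). For tgo, a dimer partner of some factors of the family, the groups did not overlap as labelled: 13.5, 13.0 and 12.4 FPKM in RNAi-Ctrl against 14.8, 14.3 and 14.1 FPKM in RNAi-GLAD (log2 fold change 0.14 ± 0.05, limma adjusted p = 0.999). The third gene of this kind, beside Cyp18a1, was Hr3, an ecdysone-induced nuclear receptor (log2 fold change -0.10 ± 0.05 as labelled, limma adjusted p = 0.999). It read 15.6, 15.0 and 14.48 FPKM in RNAi-Ctrl against 13.5, 13.9 and 14.46 FPKM in RNAi-GLAD. The libraries numbered 3 were thus nearly equal for Hr3, and its groups were barely apart. Of 7 tested neuroendocrine genes, the peptide gene AstC was at -0.22 ± 0.05 in the 4 libraries (limma adjusted p = 0.0976), AstA at 0.05 and the receptor gene AstC-R2 at -0.09. ETH, the ecdysis triggering hormone, was listed at 0 in all 6 libraries, where 3 fragments would be worth 0.135 to 0.180 FPKM.

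The 5 neuronal activity-regulated genes, listed because Hr38 belongs to the same class, gave 0 calls. Jra, the fly Jun, read 25.9, 24.6 and 27.7 FPKM in the RNAi-Ctrl libraries and 32.8, 28.6 and 24.3 FPKM in the RNAi-GLAD libraries, a log2 fold change of 0.27 ± 0.08 in the 4 libraries (limma adjusted p = 0.149). CG14186 and CG17778 were both at 0.14. Highest in RNAi-GLAD 1 and lowest in RNAi-GLAD 3, as Hr38 was, were sr, Jra and CG17778, 3 of the 5, against 534 of 9631 tested genes (5.54%). This order was looked for after the values of Hr38 were seen. The lowest value was close to the next for Jra (24.3 and 24.6 FPKM) and CG17778 (18.4 and 18.7 FPKM). The rest of the list had other orders. kay was highest in RNAi-Ctrl 3 (59.0 FPKM) and lowest in RNAi-Ctrl 2 (52.4 FPKM). CG14186 was highest in RNAi-GLAD 1 (55.8 FPKM) and lowest in RNAi-Ctrl 2 (44.8 FPKM), with 53.0 FPKM in RNAi-GLAD 3.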

How the data were processed

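RNA of 6 libraries was read as 150 bp pairs after a NEBNext Ultra preparation, per the labels' protocols. The authors deposited FPKM values. Per the submitters' processing notes TopHat was used, with BDGP6 and dm6 as builds. A counting tool and strand setting were not given in the sources used here. Of 15682 FlyBase identifiers 15002 matched the Ensembl release 115 annotation of BDGP6, the source of all coordinates.

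Values were tested as log2(FPKM + 1) with limma 3.58.1 (R 4.3.3, eBayes with trend, two-sided) where the mean FPKM was at least 1, adjusted over all genes at 0.05. This scale understates changes of low genes. Low values were near whole multiples of 1 read within each library (73.9% to 77.4% within 0.05 reads, against 10% by chance), which gave the implied totals. The reads so recovered sum to 26.6 to 35.4 M, above those totals, so fragment numbers are approximate and no count test was run. At 2000 bp 1 read was worth 0.0169 to 0.0227 FPKM, and counting values cover counting error only.

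The genes described, the lists and the 4-library comparison were chosen with earlier results of these data known. Named were all matched receptor and response genes and, per pathway list, each called gene and up to 3 with the smallest p in the 4 libraries; 1 gene under this rule is not reported here. DopEcR, spo, dib, jhamt, Hr3, ETH, sr, fit, Lsd-1, Lsp2, Yp1, topi, vri, to and Jhedup were named after their values were seen. So were Apolpp, Syt1, brp, elav, nSyb, Mst84Db, Mst87F, Mst98Ca, kay, lncRNA:CR40469, CG32641 and sordd2. The alternatives covered pseudocount, filter, scaling, trend, array weights, threshold, replicate block and libraries left out. No replicate block was used, since nothing in the labels pairs libraries of the same number. The fits were tested on simulated data. Plots were made in Python 3.11.15 (matplotlib 3.10.9).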

Additional observations from a re-analysis of the deposited data

How the results depend on the processing

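Under every alternative run, 0 of the 8 receptor and response genes were called. With the replicate block 0 genes were called as labelled and 512 in the 4 libraries, with 0 of the 8 in either; the adjusted p of Edg91 in limma was then 0.0619. Deviations of same-numbered libraries from their labelled group means correlated at -0.354, -0.404 and -0.460, values that depend on labels the libraries numbered 3 go against, and at -0.356 over the 4 libraries. By the labels the samples share only a number. With a block of crossed numbers, chosen after seeing the data, limma called 17 genes in the 4 libraries and 0 of the 8. As labelled, limma called 0 genes, and 527 without both libraries numbered 3. In the 4 libraries the 527 calls became 254 with no filter, 165 with no trend and 17 at a threshold of 0.01, and ranged from 1 to 329 with each library left out. Leaving 1 library in a group assumes that it varies like the others. The split of 396 higher and 131 lower became 309 and 133 with median-of-ratios and 319 and 171 with quantile scaling.

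Some uncalled log2 fold changes near 0 turned sign, and the cause was not tested. As labelled, quantile scaling gave -0.0018 for Hr38 and -0.0094 for Met, and array weights -0.0556 for Met. Without both libraries numbered 1 Hr38 was at -0.0717, without both numbered 2 usp was at -0.0152 and Eip74EF at 0.0124, and without both numbered 3 Met was at -0.0544. With each library left out, as labelled, Eip75B ranged from -0.0627 to 0.0333, Hr38 from -0.10 to 0.13 and Met from -0.0327 to 0.0538. In the 4 libraries Eip75B ranged from -0.0902 to 0.0251, Eip74EF from -0.11 to 0.00394 and Hr38 from -0.0439 to 0.20.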

Other observations

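A few pathway genes that were not called varied widely between libraries of the same group. These genes were chosen after their values were seen. The clock and ecdysone-response factor vri read 9.87, 10.9 and 31.0 FPKM in the RNAi-Ctrl libraries numbered 1, 2 and 3, and 13.1, 15.7 and 36.7 FPKM in the RNAi-GLAD libraries. Both libraries numbered 3 were highest, and within each number RNAi-GLAD lay above RNAi-Ctrl. Its log2 fold change in the 4 libraries was 0.43 ± 0.11 (limma adjusted p = 0.108, and 0.0542 to 0.393 over the other settings), and as labelled 0.37 ± 0.54 (0.999). The secreted feeding and clock output gene to (takeout) read 76.8, 45.2 and 21.5 FPKM in the RNAi-Ctrl libraries and 82.4, 41.4 and 21.2 FPKM in the RNAi-GLAD libraries, with both libraries numbered 3 lowest. Jhedup, an esterase gene beside the juvenile hormone esterase gene Jhe, read 12.2, 2.62 and 2.02 FPKM in the RNAi-Ctrl libraries and 7.14, 2.09 and 4.30 FPKM in the RNAi-GLAD libraries, with both libraries numbered 1 highest and a log2 fold change of -0.46 ± 0.81 in the 4 libraries (limma adjusted p = 0.783). Of the 9631 tested genes, both libraries numbered 3 stood above the other 4 for 790 (8.20%), and 0 of the 8 receptor and response genes were among them.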
